A study of Mus musculus with 15 samples.

Results

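Prrx1 and Prrx2 are paired-related homeobox genes, a pair of close paralogues, and were followed here across 15 single cells. They were chosen by name, as 2 genes of the 8446 rows in the expression table. The cells were Tomato+ cells of inguinal adipose tissue, sorted and then picked singly, from C57BL/6 adults of the genotype Prrx1-CreERT;Tomato. Every cell thus carries a Cre named for Prrx1, which acts after tamoxifen, and the red reporter Tomato that it switches on. Tamoxifen was injected at 2 mg/30 g on each of 3 days in all of them. All 15 cells form 1 group, no animal is named for any of them, and together they count as 1 sample. No p-value was computed, and each correlation across cells is a description of these 15 libraries. The labels do not say which Prrx1 sequence drives the Cre, and the Tomato transcript was not analysed here.

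Both proteins bind DNA through a homeodomain and are best known from the mesenchyme of the limb and face. Mice that lack Prrx1 have skeletal defects there, and loss of Prrx2 as well makes these defects more severe. In mouse preadipocytes Prrx1 has been described to hold back adipocyte differentiation through TGF-beta signalling. A recombined reporter stays on for the life of the cell, so a Tomato+ cell need not still transcribe Prrx1 when it is picked.

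In GRCm38, Prrx1 (ENSMUSG00000026586) occupies bases 163245119 to 163313710 of chromosome 1, minus strand, and Prrx2 (ENSMUSG00000039476) on the plus strand of chromosome 2, from 30834972 to 30881251. GENCODE lists 5 transcripts for Prrx1, of which 3 are coding, and 4 for Prrx2, of which 2 are coding. The coding Prrx1 transcripts end at 163245119 or at 163252866, and between 3142 and 4894 bases follow their coding sequence. The coding Prrx2 transcripts have 295 to 324 such bases. The longest run of bases that occurs in transcripts of both genes is 19, and of all stretches of 25 bases none was shared. The antisense gene Gm20471 (163280356 to 163287045) lies inside Prrx1 on the opposite strand. Gm26523 and Gm37644 lie inside it on its own strand. Gm20471 and Gm26523 had no row in the table, and no source used here says whether counting used the strand.

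The starts of the 2 genes differ in sequence. Shown is the stretch of Prrx1 that lies before every annotated start, because Prrx1 names the Cre driver that marked these cells; capitals mark a TAATTA, the core that paired-class homeodomains are known to bind. The sequence is that of RefSeq's promoter window in GRCm38.p6, chr1:163313711-163313900, minus strand, written 5′ to 3′:

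Prrx1 upstream: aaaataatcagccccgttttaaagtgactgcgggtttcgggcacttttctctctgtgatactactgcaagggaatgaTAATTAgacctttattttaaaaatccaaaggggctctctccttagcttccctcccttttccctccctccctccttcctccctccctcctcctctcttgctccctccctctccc

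The TAATTA, which reads the same on both strands, begins 173 bases before the RefSeq start of Prrx1. It is present in 5.29% of the 32851 RefSeq windows of 300 bases. The Prrx2 window (chromosome 2, 30845117 to 30845416) has none. It has 2 matches of GGGCGG on either strand, at 87 and 39 bases before the RefSeq start. This motif was found in 35.7% of windows and not in that of Prrx1. The whole Prrx2 window lies downstream of the GENCODE starts of both coding Prrx2 transcripts (30845059 and 30834972), unlike the Prrx1 stretch shown. Searched on both strands, TATAAA (in 13.6% of all windows) was in neither window. The same held for CCAAT (37.4%), for the E-box CACGTG (7.15%) and for the E-box CAGCTG (16.3%). The Prrx1 window is 47.7% G and C with 6 CpG, and the Prrx2 window 70.3% with 28, against medians of 52.7% and 7 over all windows. A match of letters is not a site of binding, and no binding was measured.

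Values are log2(FPKM + 1), where FPKM counts fragments relative to transcript length and to the reads of the library. The authors had brought all cells to a common distribution, so a value reflects the rank of a gene within its cell. Detection here means at least 1 FPKM, a value of 1. Every cell has 4369 rows at that level by construction, and read depth is unknown. How many genes a library caught was gauged from its rows at the lowest value, 930 to 1974 in a cell. This count had a rank correlation of 0.0286 with Prrx1 and of 0.177 with Prrx2. Of 17 stromal progenitor genes with a row, between 15 and 17 were detected in each cell. In cells 5 and 13, however, the mean of 5 mural genes (8.72 and 5.83) was above that of the stromal genes (6.84 and 5.55), so the stromal name is not supported by this measure there. In cell 13 the lowest stromal value was that of the receptor Pdgfra (0.20) and the highest mural value that of Higd1b (10.68). Other members went the other way there: mural Acta2 stood at 0.45, and stromal Vim and Col3a1 at 12.02 and 8.25. Cell 13 detected 15 of 17 stromal and 4 of 5 mural genes.

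Prrx1 was high in most of the cells and near 0 in a few. It stood at 7.56 in cell 11, followed by cells 10 (6.37), 8 (5.90), 7 (5.77) and 14 (5.33). Cells 1, 2, 5, 9 and 6 followed with 4.88, 4.85, 4.65, 4.39 and 3.97. It was lower in cells 15 (2.08) and 4 (1.12), and below 1 FPKM in cells 3 (0.68), 13 (0.43) and 12 (0.22). Prrx1 thus passed 1 FPKM in 12 of 15 cells and 5 FPKM in 10, with a median of 4.65. An exact binomial 95% interval, which covers counting error only, puts the share at 1 FPKM between 51.9% and 95.7%. The median was higher than that of 80.6% of all rows.

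Prrx2 was spread over a wider range, and other cells led it. It stood at 9.29 in cell 6, where it ranked 187 of 8446 rows, followed by cells 12 (7.57), 11 (7.12), 8 (6.04) and 1 (5.29). Middle values were those of cells 15 (3.75), 9 (3.23), 4 (2.35), 7 (2.02) and 5 (2.00). It was just above 1 FPKM in cells 2 (1.14) and 10 (1.13), below it in cell 14 (0.39), and listed at 0 in cells 3 and 13. Prrx2 also passed 1 FPKM in 12 cells, but 5 FPKM in 7 cells only (46.7%, exact interval 21.3% to 73.4%), with a median of 2.35. The standard deviation over cells was 2.37 for Prrx1 and 2.98 for Prrx2. With 1 library per cell there is no spread within a cell, so neighbours in either order cannot be told apart by a test. Some of 14 housekeeping genes were also below 1 FPKM in every cell but cell 14, with 11 to 14 detected per cell, so a value near 0 was not read as absence.

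**Figure D1:**
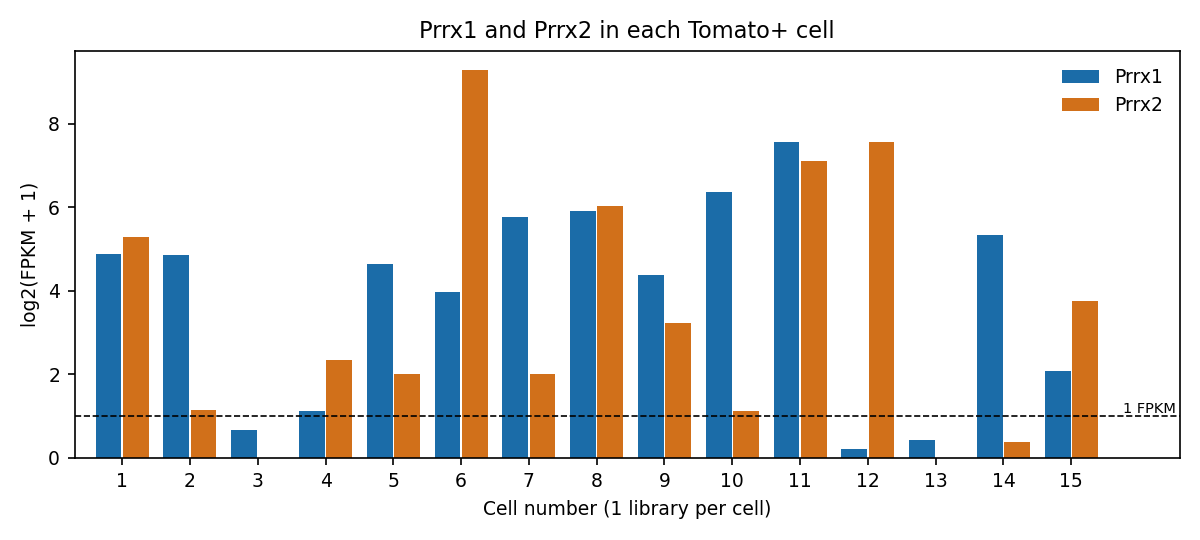
Bars give log2(FPKM + 1) of Prrx1 and Prrx2 in each of the 15 cells, 1 library per cell and no error bar; the dashed line marks 1 FPKM. Prrx1 is highest in cell 11 (7.56) and Prrx2 in cell 6 (9.29), and cells 3 and 13 have neither above the line.

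Set cell by cell, most cells had both paralogues, but their levels showed no stable relation. Both were detected in 11 of 15 cells (73.3%, exact interval 44.9% to 92.2%), Prrx1 without Prrx2 in cell 14, Prrx2 without Prrx1 in cell 12, and neither in cells 3 and 13. At least 1 of the 2 was thus detected in 13 cells (86.7%, 59.5% to 98.3%). At 5 FPKM the picture split further: 5 cells had both (1, 6, 8, 9 and 11), 5 had Prrx1 only (2, 5, 7, 10 and 14), 2 had Prrx2 only (12 and 15) and 3 had neither (3, 4 and 13). The difference Prrx1 minus Prrx2 ran from −7.35 in cell 12 and −5.32 in cell 6 to 4.95 in cell 14 and 5.24 in cell 10. In cells 1, 8 and 11 the 2 genes lay within 0.44 of each other.

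**Figure D2:**
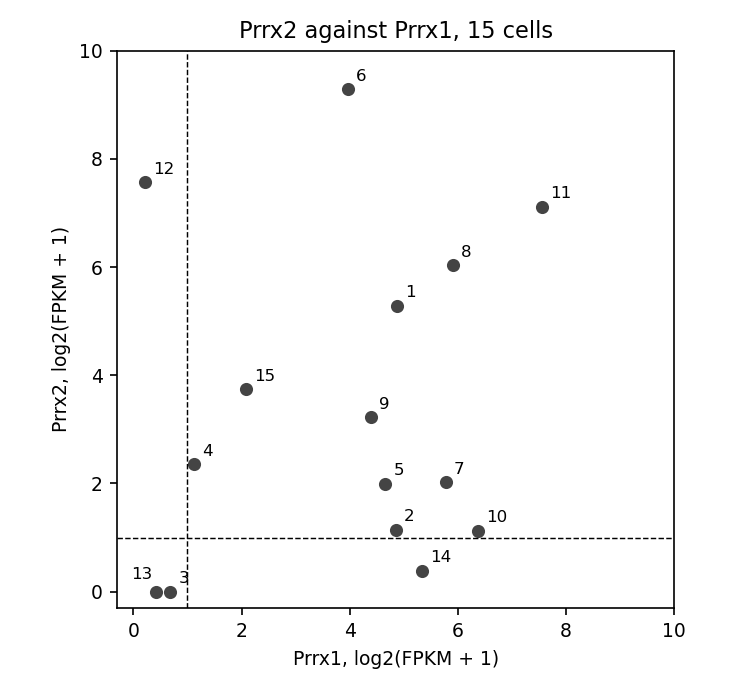
Each point is 1 cell, numbered, with Prrx1 on the horizontal and Prrx2 on the vertical axis, both as log2(FPKM + 1); dashed lines mark 1 FPKM. Cell 12 (0.22 and 7.57) and cells 10 and 14 (6.37 and 1.13, 5.33 and 0.39) lie at opposite corners.

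The Spearman correlation of Prrx1 with Prrx2 was 0.0840 over 15 cells and −0.0681 over the 14 cells without cell 13. Cell 13 has both genes near 0 and, as given further on, has high levels of genes of mural cells and of cell division. Leaving out each cell in turn gave values from −0.0681, reached without cell 3 or without cell 13, to 0.312 without cell 12. Over the 11 cells with both genes detected it was −0.0364, and over the 13 cells without 3 and 13 it was −0.269. Among the 3948 other rows detected in at least 8 cells, Prrx2 held place 1627 in the order of correlation with Prrx1, and place 2318 without cell 13. From the side of Prrx2, Prrx1 held place 1545, and 2277 without cell 13. Each paralogue was therefore near the middle of the other's order, and the sign of the relation rested on single cells.

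Which of the 2 stood higher in a cell depends on the treatment of length. Per length, as deposited, Prrx1 was above Prrx2 in 7 of the 13 cells that detected either, and Prrx2 above Prrx1 in 6. FPKM divides by transcript length, while the library kit (SMART-Seq v4 3′ DE) reads the 3′ end. The longest coding transcripts have 6527 bases for Prrx1 and 1441 for Prrx2, a difference of 2.18 on the log2 scale. With length multiplied back, Prrx1 was higher in 11 of the 13 cells and Prrx2 in cells 6 and 12. The order of cells within each gene does not change with length.

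The genes with the highest rank correlation with Prrx1 included 2 collagens and other genes of matrix and cell surface. The 10 highest by rank correlation with the same sign without cell 13 were Cd9, Col14a1, Scara3, Abca8a, Ccl8, Col1a2, Thbs3, Ndrg4, Sdf4 and Ace. The tetraspanin Cd9 led with a rho of 0.864 (0.833 without cell 13). It stood at 10.73 in cell 11, where Prrx1 was highest, between 6.47 and 10.09 in 12 other cells, and at 1.89 and 2.19 in cells 12 and 13, where Prrx1 was lowest. Col14a1, a collagen that decorates fibrils, followed with 0.825 (0.789). It ranged from 0.43 in cell 13 to 8.36 in cell 7, with a median of 4.84.

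Col1a2, a chain of type I collagen, had a rho of 0.793 (0.754). It was above 5 FPKM in all 15 cells and ranged from 5.80 in cell 13 to 12.56 in cell 11. Ccl8, a chemokine that attracts monocytes, had 0.800 (0.754) and ranged from 0.00 in cell 12 to 12.27 in cell 7. Thbs3, a matrix thrombospondin, had 0.789 and ranged from 0.54 to 9.78, but its exons overlap those of Mtx1 on the opposite strand. Sdf4, a calcium-binding protein of the secretory route, had 0.779 with a narrow range from 5.15 to 8.66. Ace, the angiotensin-converting enzyme, had 0.761. Within the 12 cells that detected Prrx1 the 10 correlations ran from 0.538 for Ace to 0.839 for Scara3, with a median of 0.658. All kept their sign, and all but that of Scara3 were lower than over 15 cells. These 12 cells are among the 15 on which the genes were chosen, so the kept signs are no separate support. The same applies to the values within detecting cells given below.

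The lowest correlations with Prrx1 belonged to a lipid droplet gene and to a few genes of other kinds. Plin2, which coats lipid droplets, had a rho of −0.811 (−0.776 without cell 13, −0.685 within the detecting cells). It was highest in cells 13 (12.47), 4 (10.14) and 12 (9.45), and lowest in cells 8 (0.67), 11 (1.17) and 1 (1.96). Scp2, a carrier of sterols and other lipids, had −0.779 and ranged from 1.71 in cell 1 to 9.17 in cell 3. The other 3 were Ccl27a (−0.804), the splicing factor Sf1 (−0.800) and the lysine methyltransferase Mettl10 (−0.782). Ccl27a shares exonic bases with Il11ra1 on the opposite strand and has near-identical copies in the mouse genome, so its value is uncertain.

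**Figure D3:**
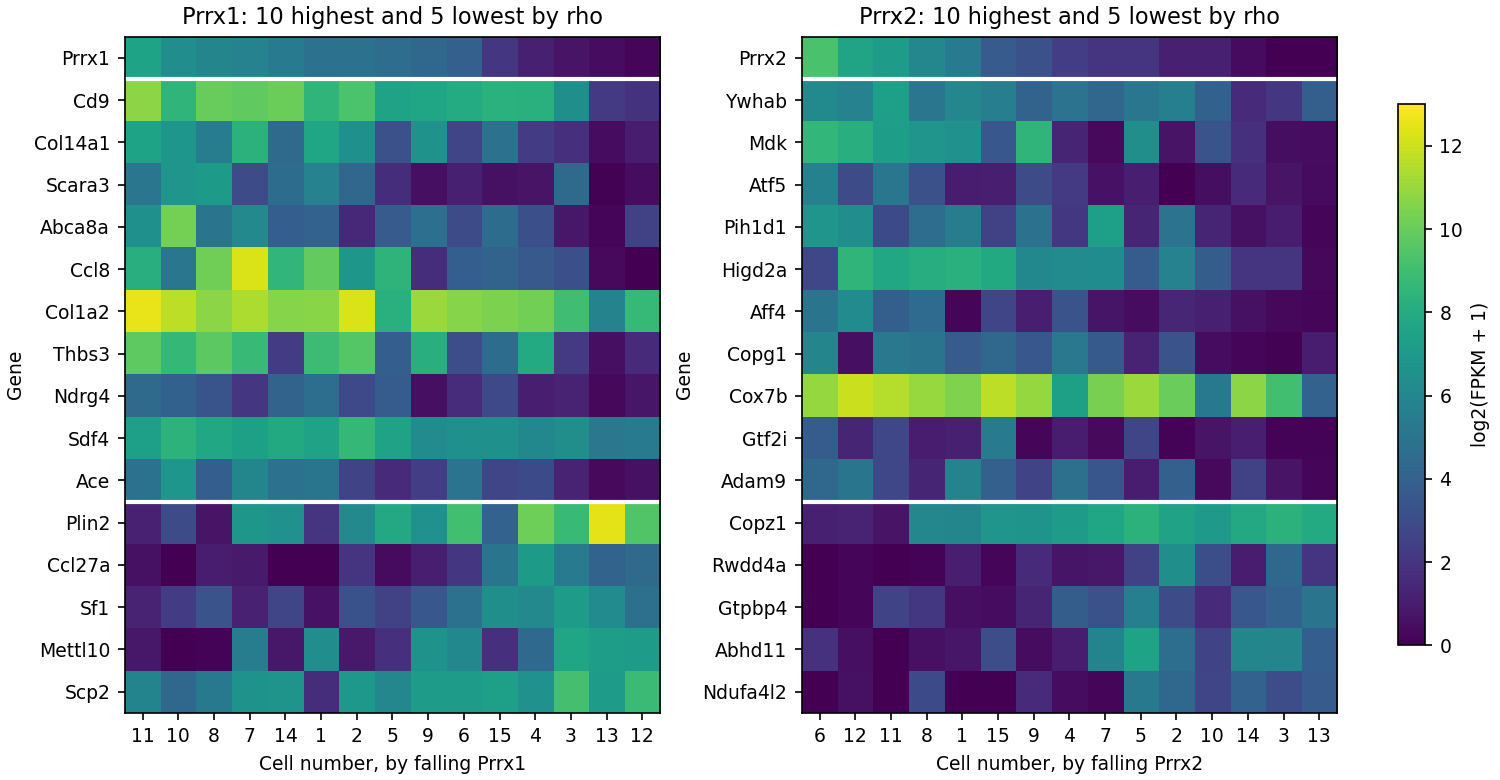
Colour gives log2(FPKM + 1), from 0 to 13, of each paralogue (top row), its 10 highest and its 5 lowest genes by rank correlation, separated by white lines; cells run from the highest to the lowest value of Prrx1 (left) or Prrx2 (right). Cd9 and Col1a2 fade and Plin2 brightens toward cells 3, 13 and 12 on the left; on the right Copz1 is dark in cells 6, 12 and 11.

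The 10 highest with Prrx2 were Ywhab, Mdk, Atf5, Pih1d1, Higd2a, Aff4, Copg1, Cox7b, Gtf2i and Adam9. Ywhab, an adaptor that binds phosphorylated proteins, led with a rho of 0.824 (0.793 without cell 13) and ranged from 1.53 in cell 14 to 7.32 in cell 11. Mdk, the heparin-binding growth factor midkine, had 0.806 (0.789). It was high in cells 6 (8.62), 9 (8.53), 12 (8.16) and 11 (7.27), and below 1 FPKM in cells 2, 3, 7 and 13. Within the 12 cells that detected Prrx2 the 10 correlations ranged from 0.441 for Higd2a to 0.832 for the transcription factor Atf5. Exons of Atf5 and Pih1d1 overlap other coding genes on the opposite strand.

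At the other end stood Copz1, a subunit of the coatomer that coats vesicles of the secretory route, with a rho of −0.908 (−0.908 without cell 13, −0.874 within the detecting cells). It was at 0.68 in cell 11, 1.12 in cell 6 and 1.32 in cell 12, which have the 3 highest values of Prrx2, and between 5.98 and 8.37 in the other 12 cells. Copg1, another coatomer subunit, was among the highest with 0.711. The other 4 of the lowest were Rwdd4a, Gtpbp4, Abhd11 and Ndufa4l2, from −0.810 to −0.698. Exons of Ndufa4l2 overlap those of Shmt2 on the opposite strand. Copz1 was not near Prrx1, with a rho of −0.225.

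Correlations of this size are common over 15 cells, and their number differs between the paralogues. Over the 3949 rows detected in at least 8 cells, the median row had a highest correlate at 0.825, against 0.864 for Prrx1 and 0.824 for Prrx2. Prrx1 had 27 rows at 0.7 or more, where the median row had 11, and more than 96.9% of rows. Without cell 13 it had 21, where the median row had 15, and more than 82.3%. Prrx2 had 9 such rows and, without cell 13, 8, more than 30.5% and 5.44% of rows. At −0.7 or less Prrx1 had 15 rows and Prrx2 4, where the median row had 10. The rows share library, normalization and cells, so these correlations are not independent of each other.

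Leaving out cell 13 changed which rows led. Of the 100 highest rows of Prrx1, 67 stayed among the 100 highest without it, and of those of Prrx2 59 stayed. No other cell was left out for these lists, so whether this turnover is particular to cell 13 was not tested. No row was among the 100 highest of both paralogues, with or without cell 13. Among the 200 highest, 5 rows (2.50% of each list) were in both. These lists were drawn from 3948 rows, so unrelated orders would share few rows too, and 0 was not read as separation. At the low end 3 rows were shared by the 100 lowest of each, and 2 without cell 13. Across the 3947 other rows, which are not independent, the correlations with Prrx1 and those with Prrx2 had a Pearson correlation of 0.0772, and of −0.139 without cell 13.

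**Figure D4:**
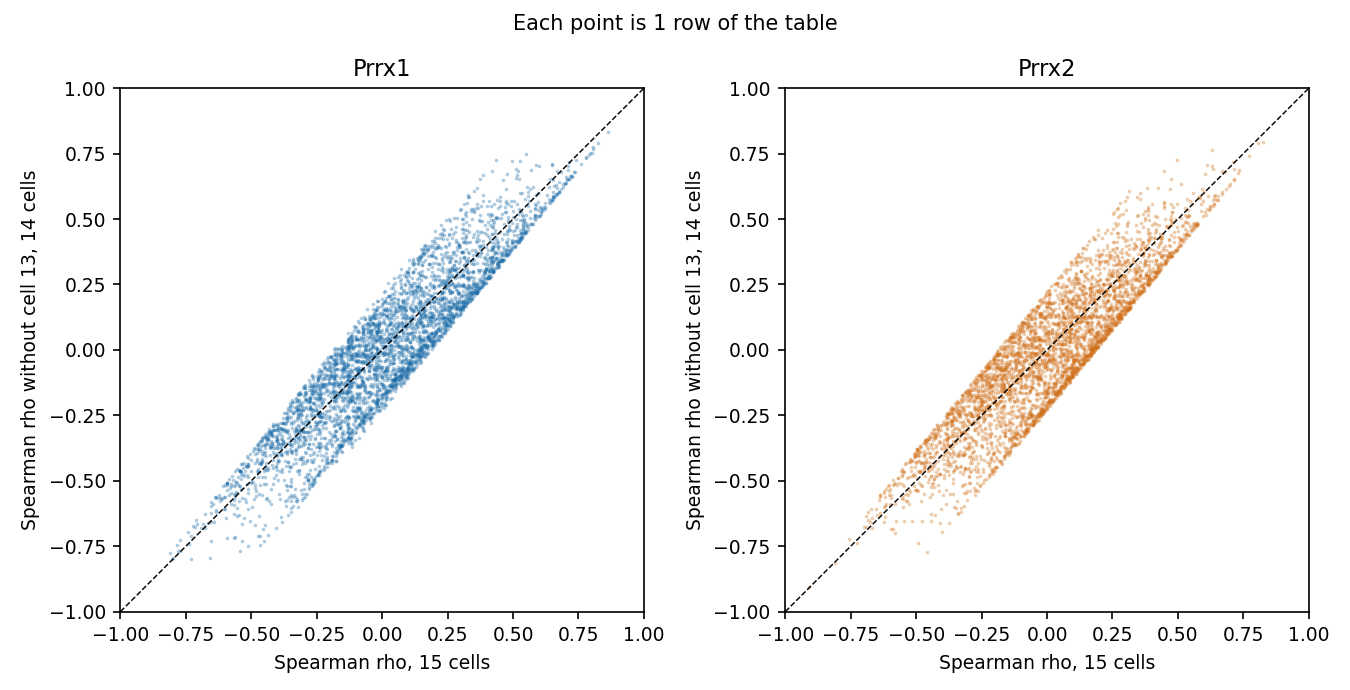
Each point is 1 of the 3948 rows detected in at least 8 cells other than the paralogue itself; the horizontal axis gives its Spearman correlation with Prrx1 (left) or Prrx2 (right) over 15 cells and the vertical axis the same without cell 13, with the line of equality dashed. Points near the ends lie close to the line (Cd9 at 0.864 and 0.833, Copz1 at −0.908 and −0.908), while those in the middle spread on both sides.

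Gene lists of fat stroma were read against the whole table. Over all 3948 rows the median correlation with Prrx1 was 0.0143 and 51.9% were positive; for Prrx2 the median was 0.00536 and 50.7% were positive. Of 17 stromal progenitor genes, 12 were positive with Prrx1, with a median of 0.296, and 13 with Prrx2, with a median of 0.143 (0.297 and 0.0594 without cell 13). Col1a2, Col1a1 (0.654), Cd34 (0.651) and Col3a1 (0.604) were among the 100 highest rows of Prrx1. Pdgfra, the receptor that marks these progenitors, was not near Prrx1 (−0.0143). The collagen VI chains Col6a1 and Col6a2 stood at −0.102 and −0.100, so the collagens did not go one way.

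Markers of 3 stromal subtypes of fat were set beside Prrx1; differences between the lists were not tested. Of 7 Dpp4 progenitor genes, 6 were positive (median 0.261, and 0.125 without cell 13), with the fibronectin gene Fn1 (0.668) and the semaphorin Sema3c (0.650) among the 100 highest rows. All 7 genes of the Cd142 stromal list were positive with Prrx1 (median 0.425, and 0.332 without cell 13), led by Gdf10 (0.675), a ligand of the BMP family, and Mgp (0.579), an inhibitor of calcification. Of 10 committed preadipocyte genes, 9 were negative (median −0.355, and −0.554 without cell 13) and Bgn alone was positive (0.425). Bgn is also in the Cd142 stromal list, where its value is the median. With Prrx2 the medians of the 3 lists were 0.225, 0.161 and 0.0822, and without cell 13 they were 0.0593, 0.0725 and 0.0374. The growth factor Igf1 (0.670) was the 1 gene of these lists among the 100 highest rows of Prrx2.

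Adipogenic genes, the class that Prrx1 is described to restrain, were mostly negative with Prrx1. Of the 8 detected in at least 8 cells, 7 were negative (median −0.362), and without cell 13 all 8 (median −0.477). Of all 18 with a row, 11 were negative and 7 positive (median −0.207). Plin2, the fatty acid carrier Fabp4 (−0.744) and the fatty acid transporter Cd36 (−0.724) were among the 100 lowest rows of Prrx1. Lpl, the lipoprotein lipase, had −0.461, and the transcription factors Ebf1, Ebf2 and Cebpb lay between −0.264 and −0.204. Cebpd, a factor of early differentiation, was positive at 0.146, and −0.0198 without cell 13. Pparg, the master regulator, passed 1 FPKM in 7 cells and had −0.387. With Prrx2, 5 of the 8 were positive (median 0.0975, and 0.165 without cell 13).

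The mean of the 18 adipogenic genes with a row ranged from 1.93 in cell 9 to 5.79 in cell 12, which had no Prrx1 at 1 FPKM and the second highest Prrx2. It had a rank correlation of −0.604 with Prrx1 (−0.556 without cell 13) and of 0.0894 with Prrx2 (0.191). The mean of the 13 committed preadipocyte genes had −0.614 with Prrx1 (−0.640) and 0.109 with Prrx2 (0.147). It was highest in cell 6 (7.76), the cell with the highest Prrx2. The lists share 4 genes (Fabp4, Lpl, Cd36 and Pparg), so the 2 values are not separate observations.

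**Figure D5:**
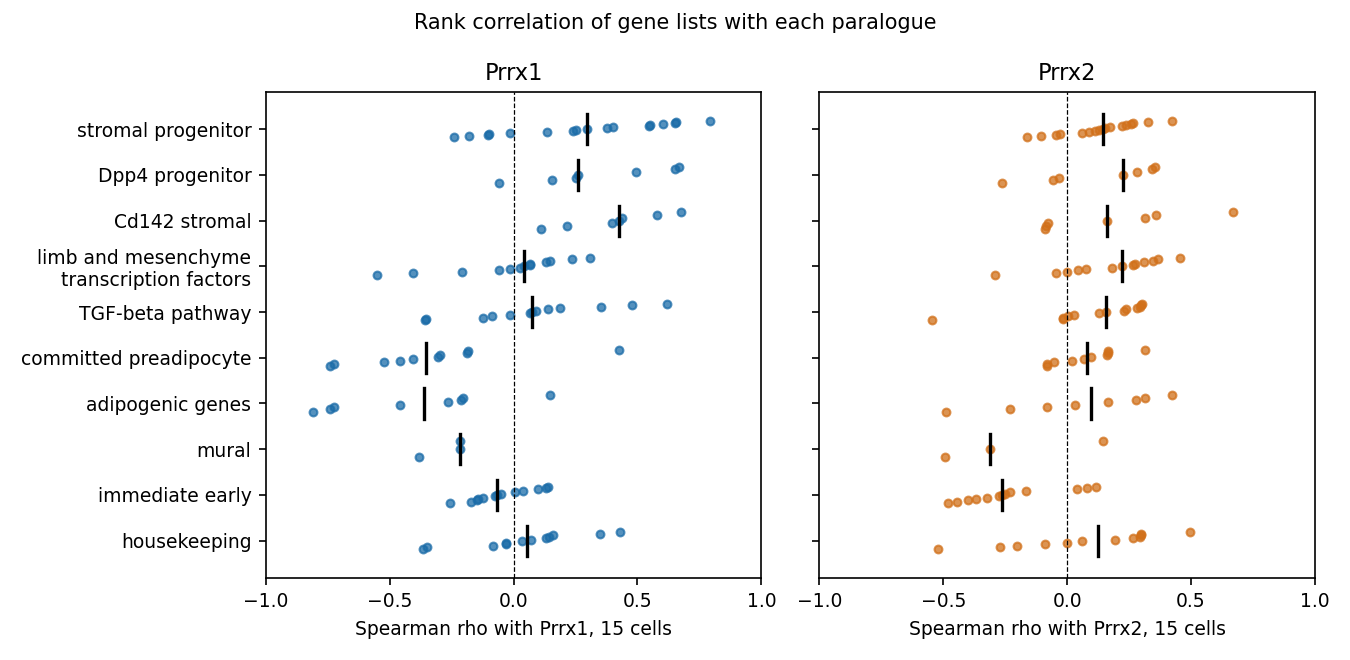
Each point is 1 gene detected in at least 8 cells; the horizontal axis gives its Spearman correlation over 15 cells with Prrx1 (left) or Prrx2 (right), rows are gene lists and black bars are medians. For Prrx1 the medians run from 0.425 (Cd142 stromal) to −0.362 (adipogenic genes); for Prrx2 they run from 0.225 (Dpp4 progenitor) to −0.309 (mural), which become 0.0593 and −0.185 without cell 13.

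TGF-beta genes, through which Prrx1 is described to act in preadipocytes, showed no common direction. The ligands Tgfb2 and Tgfb3 passed 1 FPKM in 5 cells each, with correlations of −0.146 and −0.229 with Prrx1. Of 13 genes of the pathway detected in at least 8 cells, 8 were positive with Prrx1 (median 0.0750, and 0.0330 without cell 13) and 10 with Prrx2 (median 0.157, and 0.0198 without cell 13). The receptor Tgfbr2 had 0.479 with Prrx1, and Ltbp4, which stores latent TGF-beta in the matrix, 0.618, the 1 gene of the list among the 100 highest rows. Tnc and Postn, matrix genes described downstream of Prrx1 in other cells, had 0.273 and 0.321 with Prrx1. Tnc passed 1 FPKM in 4 cells, and Postn in 14. Twist1, a partner in that loop, had 0.0643.

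Other developmental transcription factors had no strong values with either paralogue. Of 13 limb and mesenchyme factors detected in at least 8 cells, 8 were positive with Prrx1 (median 0.0429, and −0.0286 without cell 13) and 10 with Prrx2 (median 0.223, and 0.222). Of the 13, Osr2 had the highest value with Prrx2 (0.456), and Zeb2 the lowest with Prrx1 (−0.554). Nfia stood at −0.407 with Prrx1, and −0.679 without cell 13, against 0.349 with Prrx2. Of 29 genes listed from the paired and aristaless homeobox class, Shox2 was the 1 with a row; it passed 1 FPKM in 6 cells and had 0.0108 with Prrx1. The 7 Hox genes with a row were each detected in at most 6 cells. In sparse genes such as these a rank correlation rests on few values.

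Mural genes were highest in cells 5 and 13, and genes of cell division in cell 13. Of 11 mural genes 5 had a row; the mean of those 5 reached 8.72 (cell 5) and 5.83 (cell 13), with 0.386 to 2.37 elsewhere. It had a rank correlation of −0.575 with Prrx1 (−0.521 without cell 13) and of −0.291 with Prrx2 (−0.160). Gene by gene the values were weaker: with Prrx1 4 of the 5 were negative (median of all −0.218) and Abcc9 was positive (0.0821). Of the 5 genes, 3 were detected in at least 8 cells. Of 14 cell division genes 7 had a row; the mean of those 7 reached 8.75 in cell 13, with 0.459 to 2.91 elsewhere. It had −0.718 with Prrx1 (−0.670 without cell 13) and −0.214 with Prrx2 (−0.0374). Gene by gene, all 7 were negative with Prrx1, with a median of −0.493. Only 1 of them was detected in at least 8 cells, and it had −0.164, so the mean rests largely on sparse genes. Cells 3 and 13, the ones with neither paralogue, detected all 7 division genes, and no other cell more than 4. By mean level, however, cell 3 (2.72) did not stand out and was below cell 4 (2.91), which detected both paralogues. The part of cells 3 and 13 in the correlations was not tested. Cell 5 held Prrx1 at 4.65 together with the highest mural mean. Of the 2 endothelial genes with a row, Esam stood at 10.90 and Tek at 0.06 in cell 13.

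The remaining lists were weak or sparse. Of 13 immediate early genes, which respond to handling, 10 were negative with Prrx2 (median −0.261) and, without cell 13, all 13 (median −0.305). With Prrx1 8 were negative, with a median of −0.0679. Housekeeping genes had medians of 0.0527 with Prrx1 and 0.126 with Prrx2. Endothelial, immune, Schwann and mature adipocyte markers had 2, 2, 2 and 5 genes with a row, at most 1 of them detected in 8 or more cells. No listed marker of mesothelium, epithelium or skeletal muscle had a row, so these were not analysed here.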

How the data were processed

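Each of the 15 cells gave 1 library (SMART-Seq v4 3′ DE, then Nextera XT), per the labels' protocols. Reads were processed with TopHat2 and Cufflinks on GRCm38, per the submitters' processing notes; no version is named. The authors' deposited values are on a log2 scale, read as log2(FPKM + 1): they end at 13.69, and read so they sum to a mean of 592948 FPKM per cell. The base was inferred. The sorted columns agree within 0.0354 above a value of 0.2, so the deposited log2 values had been quantile-normalized. The file holds no counts, so depth and its precision are unknown.

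Columns were tied to cells by the number shared with the sample title, and 18 further columns were empty. Spearman correlations were computed with numpy 2.4.6 and scipy 1.17.1 over rows at 1 FPKM or more in at least 8 cells, and checked on simulated data. Pearson, partial and 14-cell versions were the main alternatives. Sequences and loci are from RefSeq GRCm38.p6 and GENCODE M21. Of 278 listed genes 166 had a row. Named genes were, for each paralogue, the 10 highest and 5 lowest by correlation with the same sign without cell 13, after leaving out ribosomal protein, predicted and unmatched genes; the members of the lists could be named as well. Gene identifiers matched the reference for 8431 of 8446 rows. The members and lists were chosen with earlier results of these data known.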

Additional observations from a re-analysis of the deposited data

How the results depend on the processing

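The correlation of Prrx1 with Prrx2 (0.0840) had no stable sign: leaving out 1 cell gave −0.0681 to 0.312, and it was −0.0364 in the cells with both detected and −0.269 without cells 3 and 13, a choice made after seeing the data. Pearson (0.152), Kendall (0.0766) and partial (0.0802) versions stayed positive. At 5 FPKM, Prrx2 was detected in 7 cells (46.7%) in place of 12, and both genes in 5 cells in place of 11. With length multiplied back, also added later, Prrx1 was above Prrx2 in 11 cells in place of 7. Without a filter, 45 rows reached 0.7 with Prrx1 and 16 with Prrx2, by construction of more rows. Rows at −0.7 or less with Prrx1 were 15, and 23 without cell 13. With Prrx2 they were 4, and 7 without cell 13, 7 in the partial version and 9 without a filter. Of lists drawn from 3948 rows, the shared rows were 0 of the 100 and 5 of the 200 highest. The cause of the other shifts was not tested. Without cell 13, 3 list medians turned sign: limb and mesenchyme factors with Prrx1 (−0.0286), the 1 Schwann gene used, Mbp, with Prrx1 (−0.0242) and, over 2 genes, those described downstream of Prrx1 with Prrx2 (0.0198 in place of −0.0786). No paired analysis was possible because the labels give 1 group. Read depth is unknown, so low values cannot be told from missed transcripts, and 15 cells from an unknown number of mice bear no test.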
